A study of Homo sapiens with 20 samples.

Results

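The BCL2 family decides whether a stressed cell opens its mitochondria and dies. Pro-survival members (BCL2, BCL2L1, which encodes BCL-xL, and MCL1) hold the pore-forming effectors BAX and BAK1 in check. BH3-only members (BBC3, which encodes PUMA, PMAIP1, which encodes NOXA, BCL2L11, which encodes BIM, BID and BAD) bind the pro-survival proteins or activate the effectors, and cisplatin, a DNA-crosslinking drug, kills cells largely through this pathway. N6-methyladenosine (m6A) is a base modification placed on mRNA by a METTL3-containing writer complex, mostly in the sequence context known as DRACH and often near stop codons. The 10 genes named here were examined for m6A peaks in their exons: 3 pro-survival genes and 7 pro-death genes, 2 of them effectors and 5 BH3-only. A peak belonged to a gene when its summit, the position of highest enrichment, lay in an exon of the gene. By this rule the 10 genes held 201 of the 231465 peaks and 22 of the 43676 merged regions, a merged region being a stretch covered by the overlapping peaks of any libraries.

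The peaks come from methylated RNA immunoprecipitation sequencing (MeRIP-seq) of T24, a cisplatin-sensitive human bladder cancer cell line, and T24R2, a resistant line derived from it by serial exposure to cisplatin and, per the study's methods, kept in medium with the drug. Both are labelled WT for genotype and were harvested at day 3. Each line had 5 immunoprecipitated (IP) libraries and 5 inputs. The labels do not say that replicates were separate cultures, so p-values measure the spread between these libraries, which may be technical, and 1 parental and 1 derived line stand for sensitivity and resistance. The lists held 17203 to 33120 peaks, from 17203 to 22901 in T24 and from 22671 to 33120 in T24R2. As a check of the label, exonic peaks were present in all 10 libraries for KRT7, an epithelial keratin, and for the mesenchymal markers CDH2 and ZEB1. They were present in none for the epithelial markers EPCAM, CDH1, KRT8 and KRT19. The epithelial marker KRT18 had one in 0 T24 and 2 T24R2 libraries, and the mesenchymal marker VIM in 5 and 4. Of 8 urothelial markers 3 had an exonic peak in any library. GATA3 had one in 5 of 5 T24 and 0 of 5 T24R2 libraries (exact Fisher p = 0.00794, adjusted p = 0.203). Of all 10237 protein-coding genes with an exonic summit, 2.28% had an unadjusted p under 0.05 with more T24 libraries. The blood cell markers PTPRC and CD3E had no exonic peak. The lists thus hold few of the defining urothelial markers, and they hold no expression values.

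Stretches of 29 nt around the sense-strand DRACH nearest to the summit are shown for 7 of the 8 member summit clusters found in all 10 libraries, because they mark where every library placed a summit. The 5 bases that match DRACH are in capitals (first base A, G or T, second base A or G, then A, then C, then A, C or T). Sequences are from hg38, read 5′ to 3′ on the strand of the gene.
BCL2 coding sequence: cagggacggggtGAACTgggggaggattg
BCL2 3′UTR: cgacccttcttaAGACAtgtatcactgta
BCL2L1 stop codon: ttcagtcggaaaTGACCagacactgacca
MCL1 coding sequence: gcctttgtggctAAACActtgaagaccat
MCL1 3′UTR: gaggattatggcTAACAagaataaataca
BBC3 3′UTR: tgacggagatgcGGACTcctgggtccctg
PMAIP1 3′UTR: acttgcatgaggGGACTccttcaaaagag
The BCL2 stretches lie at chr18:63318225-63318253 and chr18:63127394-63127422 and the BCL2L1 stretch at chr20:31665935-31665963, all on the minus strand. The MCL1 stretches lie at chr1:150578338-150578366 and chr1:150577214-150577242 and the BBC3 stretch at chr19:47221593-47221621, also on the minus strand, and the PMAIP1 stretch lies at chr18:59902765-59902793 on the plus strand. In BCL2L1 the adenosine of the motif was the last base of the stop codon itself, 20 nt from the median summit. In BCL2 the motif adenosine fell in codon 143, within the stretch that encodes the BH1 domain, 32 nt from the median summit and with no other DRACH within 50 nt. In MCL1 the motif adenosine fell in codon 276 and lay 3 nt from the median summit. The BBC3 and PMAIP1 3′UTR sites shared the 5 letters GGACT, and their adenosines lay 195 nt and 26 nt past the last base of the stop codon. A second PMAIP1 cluster, in the 5′UTR, was also found in all 10 libraries and had no sense DRACH within 50 nt of its summit.

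Exonic peaks were found in all 10 libraries for 6 of the 10 genes: BCL2, BCL2L1, MCL1, BBC3, PMAIP1 and BCL2L11. They were 6 of the 8 members with an exonic summit in any library (75%), where 5514 of 10237 such protein-coding genes (53.9%) had one in all 10. The effectors were nearly free of peaks. This is common, as 10237 of 19061 genes of the whole series had an exonic summit in any library. BAX, which forms the mitochondrial pore, had 1 peak, in T24 replicate 4, in an exon that is not part of its main (MANE) transcript, at a fold enrichment of 3.30 over input and percentile 4.62 of that list. BAK1, the second pore former, had no exonic summit in any library. Of the BH3-only genes, BID had none and BAD, a sensor of survival signalling, had 2 weak peaks in T24R2 replicate 5, at percentiles 6.99 and 0.938, of which the weaker also overlapped an exon of the neighbouring gene GPR137. That library held the longest list. Because the lists carry no expression, a gene without methylated sites and a gene with too little RNA cannot be told apart.

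**Figure D1:**
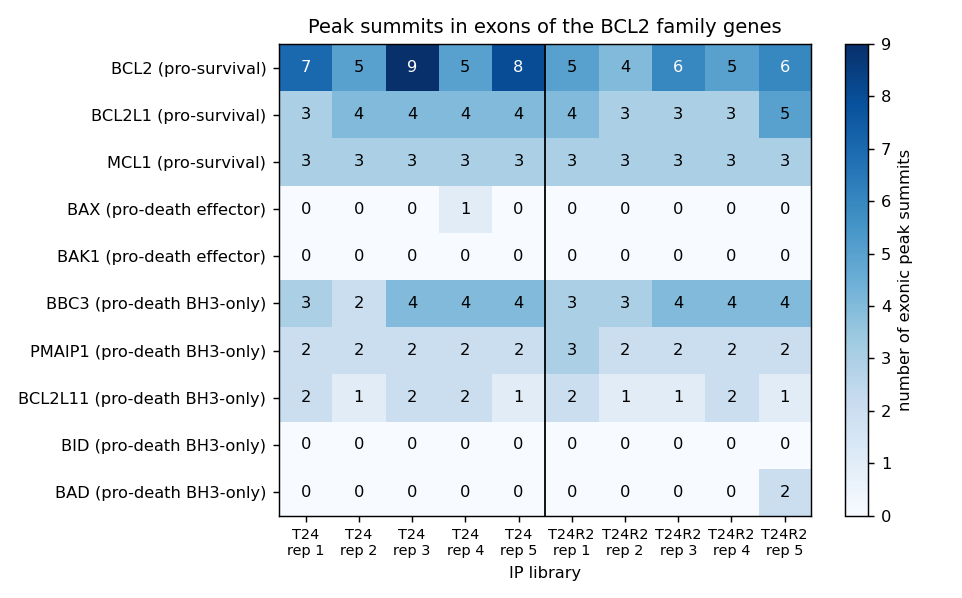
Number of exonic peak summits of each of the 10 genes (rows, with the role of each) in each of the 10 IP libraries (columns, T24 left and T24R2 right of the line), given in each cell and by colour. BCL2, BCL2L1, MCL1, BBC3, PMAIP1 and BCL2L11 have peaks in every library, and the 3 peaks of BAX and BAD sit in 2 libraries.

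No member gene was gained or lost between the lines. The 6 genes above had an exonic peak in 5 of 5 libraries of each line, and the BAX and BAD peaks gave a two-sided exact Fisher p of 1 (5 against 5 libraries). None of the 10 genes had p under 0.05, where 8.08% of all 10237 genes did, 5.8% with more T24R2 and 2.28% with more T24 libraries. None of the 22 member regions did either, where 9.21% of the 43676 regions did. After Benjamini-Hochberg adjustment no gene and no region of the whole series passed 0.05 (0% in both), with the lowest adjusted p at 0.203 for genes and 0.195 for regions.

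The number of exonic member peaks per library overlapped between the lines. T24 libraries 1 to 5 held 20, 17, 24, 21 and 22 peaks, and T24R2 libraries held 20, 16, 19, 19 and 23, or 20.8 ± 2.59 against 19.4 ± 2.51 (SD, n = 5 each). Longer T24R2 lists therefore came with no higher number of member peaks. The pro-survival genes had 13.6 ± 1.82 peaks in T24 and 11.8 ± 1.48 in T24R2, and the pro-death genes 7.2 ± 1.48 and 7.6 ± 1.14. The difference of the total, 1.4 peaks fewer in T24R2, lay within the spread of each line, and it turned to 1.4, 1 and 0.2 peaks more when only peaks with a −log10 q of at least 5, of at least 10 or a fold of at least 4 were kept.

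Member regions differed in where they lay on the transcript. Of the 22 regions, 3 had their strongest exonic summit in the 5′UTR, 9 in coding sequence, 6 in the 3′UTR and 4 in exons outside the MANE transcript, where all exonic regions of protein-coding genes held 7.89%, 53.5%, 25.6% and 13.1%. The 11 pro-survival regions included no 5′UTR region and 5 coding regions, and the 11 pro-death regions included 3 in the 5′UTR and 4 in coding sequence. The pro-survival genes had a median of 4 regions per gene and the 5 pro-death genes with an exonic summit 2, against 2 for all genes with an exonic summit and a MANE transcript. Of the genes with an exonic summit, 3 of 3 pro-survival genes (100%), 3 of 5 pro-death genes (60%) and 55.1% of all genes had a region called in all 10 libraries. With so few genes these shares are descriptions.

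**Figure D2:**
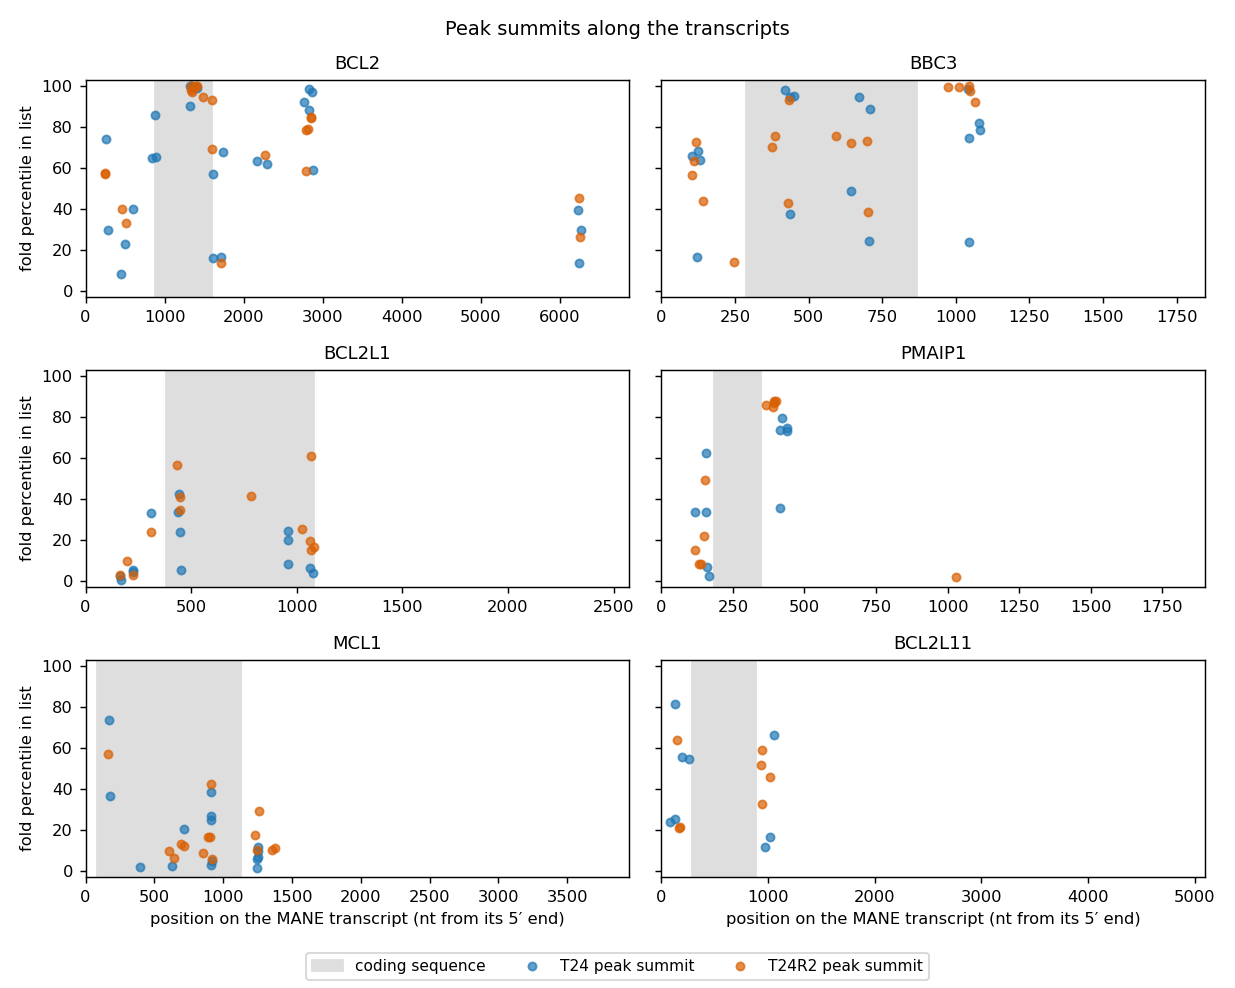
Peak summits of the 6 genes with peaks in every library along the MANE transcript (x axis, nt from the 5′ end) against the percentile of fold enrichment within the library's list (y axis), with T24 and T24R2 libraries in 2 colours and the coding sequence shaded. BCL2 has a dense cluster at percentiles above 90 in the coding sequence, BBC3 and PMAIP1 have their highest summits just past the stop codon, and most MCL1 summits lie low.

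The strength of a peak was compared as its rank. Column values give a fold enrichment of IP over input, and each peak was placed by its percentile in its own list (100 is the highest), so that lists need no common scale. A region took its highest peak. Of the 22 member regions, 11 were called in all 10 libraries and could be compared in full. Over all 9577 such regions the percentile was higher in T24R2 by a median of 4.84 points, against which each member difference should be read. Of the 9577 regions, 10.9% had an unadjusted exact permutation p under 0.05 with higher values in T24R2 and 3.04% with higher values in T24. Of the 11 member regions 3 did, all higher in T24R2: the 3′UTR regions of BBC3, PMAIP1 and MCL1. None passed after adjustment over all regions, as no region of the series did.

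BCL2, the founding pro-survival gene, carried the strongest member region. It spans exon 2 and the 5′ end of the transcript (chr18:63317538-63319700), with a summit cluster around codon 154 in all 10 libraries. In T24 the percentiles of the region were 99.99, 99.3, 97.8, 99.8 and 99.1, and in T24R2 97.2, 99.97, 99.95, 97.8 and 99.97. Every library of both lines thus ranked it in the top 3% of its list, at folds of 17.3 to 42.1. The highest peak had its summit in the codon 154 cluster in every library but 1. In T24 replicate 3 it lay in an exon outside the MANE transcript, and the codon 154 summit of that library stood at 90.4. The difference of the region was −0.24 points (exact permutation p = 0.865, adjusted p = 0.966). Its mean percentile of 99.1 was at or above that of 99.9% of the regions called in all 10 libraries, and only 5 of the 5345 protein-coding genes that have a MANE transcript and an exonic summit in every library had a higher mean best percentile. The genes with the most similar values over the 10 libraries, by the mean absolute difference in percentile among 5398 genes, were CDK13 (0.611 points), NRG2 (0.826 points) and WDR91 (0.907 points).

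The same BCL2 region held further summits, and some were separate summits in 1 line only. A summit cluster around the start codon was found in 3 T24 and 0 T24R2 libraries and one near position 601 in 2 and 0, while 2 clusters further 5′ had summits in 2 libraries of each line. A cluster 3′ of codon 154, in an exon outside the MANE transcript, had summits in 2 and 0 libraries. The missing summits were not missing peaks: the start-codon position and the position in the non-MANE exon were covered by a peak in 5 of 5 libraries of each line, and position 601 was covered in 2 T24 and 4 T24R2 libraries. These clusters were picked out after their values were seen and were not tested.

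In the 3′UTR region of BCL2 (chr18:63127000-63128863), where a summit cluster near position 2828 of the 6881-nt transcript, 1226 nt past the stop codon, was found in all 10 libraries, the percentiles of the highest peak were 92.4, 98.7, 96.9, 88.4 and 63.6 in T24 and 78.9, 94.8, 84.8, 78.6 and 93.3 in T24R2 (difference −1.94 points, exact permutation p = 0.825). The lines overlapped. In T24 replicate 5 and T24R2 replicates 2 and 5 that peak lay elsewhere in the region, at position 2168 and, in coding sequence, at positions 1490 and 1597. At the cluster itself these libraries stood at 58.9, 58.5 and 84.6, and the mean of the cluster was 87.1 for T24 against 77.1 for T24R2 (−9.99 points, not tested). A far 3′ region near the end of the transcript was called in 3 T24 and 2 T24R2 libraries at percentiles of 14.0 to 45.5, and a region in an upstream exon outside the MANE transcript in 4 and 5 libraries.

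BCL2L1, which encodes the pro-survival protein BCL-xL, had lower-ranked peaks. The region at the end of its coding sequence (chr20:31665741-31666221), on which the stop-codon DRACH lies, had percentiles of 8.59, 6.26, 24.4, 3.84 and 19.9 in T24 and 14.99, 25.7, 16.5, 60.8 and 19.7 in T24R2. The difference of 14.9 points (exact permutation p = 0.111, adjusted p = 0.485) rested in good part on T24R2 replicate 4, and without it the difference was 6.63 points. All 5 T24R2 summits lay between positions 1026 and 1080 of the transcript. Of the T24 summits, 2 lay there as well and 3 lay at positions 957 to 958.

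The region over the start of the BCL2L1 coding sequence (chr20:31721669-31722975) had percentiles of 33.7, 24.05, 33.0, 42.3 and 5.51 in T24 and 41.6, 56.6, 34.6, 41.2 and 23.97 in T24R2 (difference 11.9 points, exact permutation p = 0.198). A region just upstream, in an exon outside the MANE transcript, was present in 5 T24 lists and in 4 T24R2 lists. When every list was cut to the same number of its strongest peaks, that upstream region was called in 4 fewer T24R2 than T24 libraries (exact Fisher p = 0.0476, adjusted p = 0.843). Both of these regions also lie in exons of ABALON, a noncoding RNA on the opposite strand, and since the lists carry no strand the 26 peaks of the 2 regions may belong to either transcript.

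MCL1, a short-lived pro-survival protein, had exactly 3 peaks in every library. With the peaks shared with ABALON counted for BCL2L1, MCL1 had the lowest mean best percentile of the 6 genes (34.8). That was at or above only 8.49% of the 5345 protein-coding genes with a MANE transcript and an exonic summit in every library. In exon 1 (chr1:150578856-150579643), where the highest summits lay at positions from 166 to 719, the percentiles were 2.62, 36.7, 20.7, 73.4 and 2.12 in T24 and 56.9, 9.73, 13.2, 6.24 and 12.3 in T24R2. In exon 2 (chr1:150578202-150578620) they were 3.10, 5.03, 38.6, 25.1 and 26.9 in T24 and 6.02, 9.01, 16.5, 16.7 and 42.3 in T24R2. Neither differed between the lines beyond the spread (−7.43 and −1.63 points, exact permutation p = 0.643 and 0.841).

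The 3′UTR region of MCL1 (chr1:150576793-150577606) had percentiles of 9.55, 5.66, 11.6, 7.11 and 1.62 in T24 and 10.1, 29.1, 17.4, 10.5 and 11.3 in T24R2. The values overlapped, and the mean was 8.57 points higher in T24R2 (exact permutation p = 0.0397, adjusted p = 0.315). The median over all regions was 4.84 points. When the rank was taken only among the regions called in all 10 libraries, an alternative chosen after the data were seen, the difference was 1.74 points (exact permutation p = 0.5), and without T24R2 replicate 2 it was 5.205 points (exact permutation p = 0.0794).

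**Figure D3:**
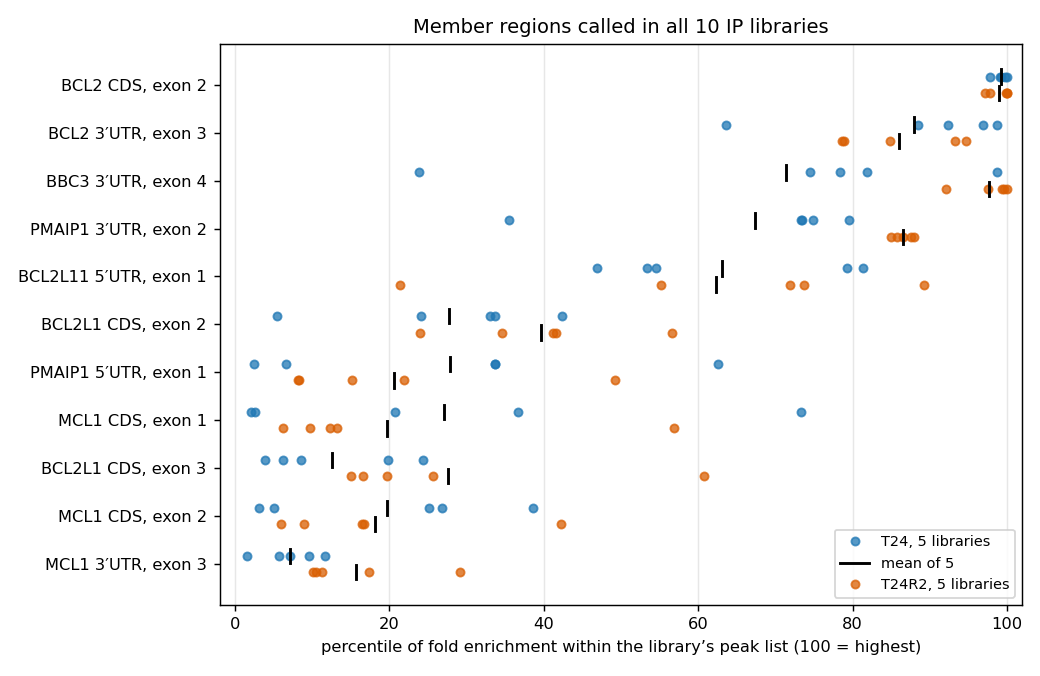
Percentile of fold enrichment (x axis, 100 is the highest of a library's list) of the 11 member regions called in all 10 IP libraries (rows, ordered by mean and named by the strongest exonic summit), with 1 point per library and a bar at the mean of each line. The PMAIP1 3′UTR region is the row in which all T24R2 points (85.0 to 87.9) lie above all T24 points (35.5 to 79.6), and the BCL2 coding region lies above 97 in every library.

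Among the BH3-only genes, PMAIP1, which encodes the p53-responsive protein NOXA that neutralises MCL1, had the one member region in which the lines did not overlap. In its 3′UTR (chr18:59902519-59903499) the percentiles were 35.5, 73.5, 74.8, 79.6 and 73.3 in T24 and 87.9, 85.0, 86.6, 85.7 and 87.5 in T24R2. Every T24R2 library lay above every T24 library, and the T24R2 values spread over 3 points. The means were 67.3 ± 18.0 and 86.6 ± 1.22 (SD, n = 5 each), a difference of 19.2 points (exact permutation p = 0.00794, the smallest that the permutations can give, adjusted p = 0.176). Of all 9577 regions, 3.63% were non-overlapping and higher in T24R2 and 0.867% non-overlapping and higher in T24. Without T24 replicate 1, the lowest library, the difference was 11.3 points (exact permutation p = 0.00794). Taking the mean over the peaks of the region instead of the highest gave 10.6 points (exact permutation p = 0.421), since T24R2 replicate 1 had a second peak at percentile 2.25 further along the 3′UTR.

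The summits of this PMAIP1 region lay at positions 416, 414, 439, 420 and 439 of the 1899-nt transcript in T24 and, leaving out that second peak, at 399, 391, 393, 366 and 394 in T24R2. All T24R2 summits were thus nearer the stop codon, a pattern noticed after the values were seen and not tested. The 5′UTR region of PMAIP1 (chr18:59899999-59900441) had percentiles of 33.7, 2.44, 33.7, 62.6 and 6.68 in T24 and 49.2, 8.31, 8.19, 15.2 and 21.9 in T24R2 (−7.25 points, exact permutation p = 0.611). The lines overlapped widely there.

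BBC3, which encodes PUMA, a BH3-only protein that binds every pro-survival member and is induced by p53, had 1 region in each of its 4 exons. The 3′UTR region in exon 4 (chr19:47220867-47222034), with its median summit 178 nt past the stop codon, had the highest mean percentile over both lines. That mean was 84.6, against 75.9 for the exon 2 region over its libraries with a peak. In T24 alone the exon 2 region had the higher mean, 81.2 against 71.4, and it ranked above the 3′UTR region in replicates 3, 4 and 5. The percentiles of the 3′UTR region were 23.8, 98.7, 81.8, 74.5 and 78.3 in T24 and 99.96, 99.6, 97.5, 99.4 and 92.1 in T24R2. All T24R2 libraries were in the top 8% of their lists, and T24 replicate 2 was as high. The means were 71.4 ± 28.2 and 97.7 ± 3.27 (SD, n = 5 each), a difference of 26.3 points (exact permutation p = 0.0238, adjusted p = 0.263). T24 replicate 1 was the lowest, and without it the difference was 14.4 points (exact permutation p = 0.0317). Without T24R2 replicate 1, 2 or 4 the difference was 25.7 to 25.9 points with an exact permutation p of 0.0556.

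The other 3 BBC3 regions were called in most libraries of both lines. The 5′UTR region was present in 4 lists of T24 and 5 of T24R2, and the coding regions of exons 2 and 3 in 4 of each. Mean percentiles over the libraries with a peak were 53.8 and 50.2 in the 5′UTR, 81.2 and 70.5 in exon 2 and 64.3 and 64.9 in exon 3 (T24 and T24R2). The higher rank of the 3′UTR region in T24R2 was thus not seen in these regions, though the difference between regions was not tested.

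BCL2L11, which encodes BIM, an activator of BAX and BAK1, had a region over its 5′UTR (chr2:111120608-111121703) in all 10 libraries, but only 8 of its 19 summits were exonic. The highest peak of the region gave percentiles of 54.5, 46.9, 53.4, 79.2 and 81.3 in T24 and 21.4, 73.8, 55.2, 71.8 and 89.3 in T24R2 (−0.78 points, exact permutation p = 0.984), and 7 of these 10 values came from summits outside the annotated exons. Exonic 5′UTR summits were found in 5 T24 libraries, at percentiles of 54.5, 23.7, 25.3, 55.6 and 81.3, and in 3 T24R2 libraries, replicates 1, 3 and 4, at 21.4, 21.2 and 63.9. The exonic values of the lines overlapped. A 3′UTR region (chr2:111164205-111164454) was found in 3 libraries of T24 and 4 of T24R2, at percentiles of 11.5 to 66.2. Its strongest summit lay 173 nt past the stop codon.

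Set side by side, the genes of each role spread widely in rank. By the mean of the best exonic peak over the 10 libraries, BCL2 stood at 99.1, BBC3 at 94.2, PMAIP1 at 76.95, BCL2L11 at 50.4, BCL2L1 at 46.0 and MCL1 at 34.8. The median of the 5345 protein-coding genes with a MANE transcript and an exonic summit in every library was 73.2. The median was 45.96 for the 3 pro-survival genes and 76.95 for the 3 pro-death genes with a summit in every library. Pro-survival genes took both the highest place and the 2 lowest places. In every library but T24R2 replicate 4 the best BCL2L1 peak lay in a region shared with exons of ABALON. The stop-codon region of BCL2L1, which is not shared, had a mean percentile of 20.1, so which of the 2 genes ranks lowest depends on the shared peaks. Every pair of neighbours in this order overlapped in range over the 10 libraries: BCL2 ran from 97.2 to 99.99, BBC3 from 66.0 to 99.96, PMAIP1 from 35.5 to 87.9, BCL2L11 from 21.2 to 81.3, BCL2L1 from 24.05 to 62.5 and MCL1 from 9.55 to 73.4.

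Rank by fold enrichment and rank by −log10 q gave different pictures of BCL2L1 and MCL1. The 3 MCL1 regions had mean fold percentiles of 23.4, 18.9 and 11.4 and mean −log10 q percentiles of 72.9, 69.6 and 67.8, and the start region of BCL2L1 had 33.7 and 87.9. Over all regions called in 10 libraries the medians were 66.0 and 72.0. The MCL1 and BCL2L1 regions thus lay low by fold and near or above the median by q. For BCL2 and BBC3 both ranks were high: the BCL2 coding region had a mean −log10 q percentile of 98.7 and the BBC3 3′UTR region 95.2. On this scale the difference of the PMAIP1 3′UTR region was 3.09 points (exact permutation p = 0.00794), that of the BBC3 3′UTR region 6.51 points (exact permutation p = 0.0635) and that of the MCL1 3′UTR region 21.7 points (exact permutation p = 0.0476). The BCL2L1 stop-codon region differed by 18.8 points (exact permutation p = 0.0238), and the lowest adjusted p among the member regions was 0.126. Over all 9577 regions the median difference on the −log10 q scale was 6.07 points, more than that of the PMAIP1 region. Of these regions 15.4% had an unadjusted exact permutation p under 0.05 with higher values in T24R2 and 3.64% with higher values in T24.

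**Figure D4:**
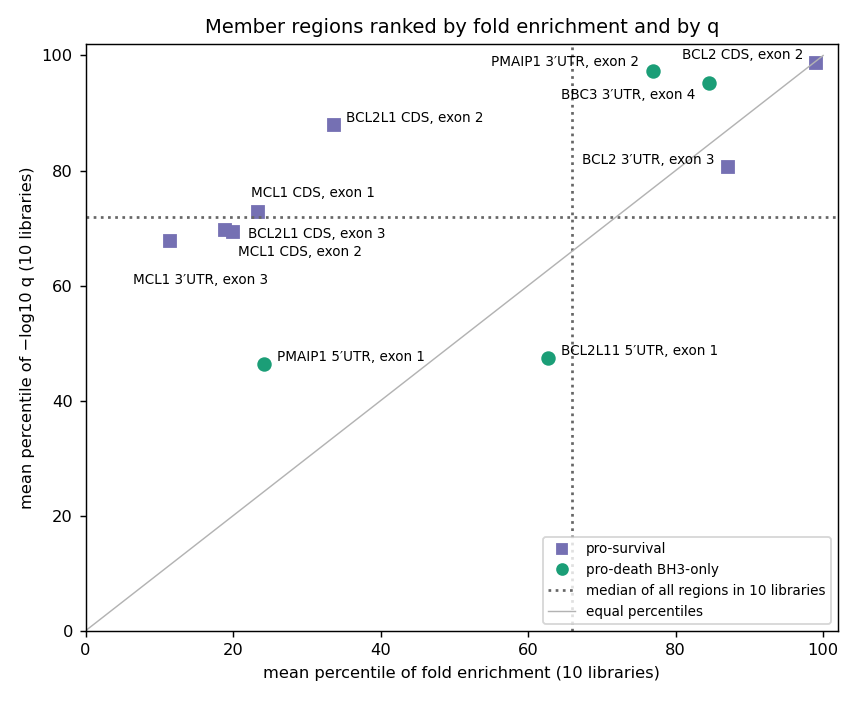
Mean percentile of fold enrichment (x axis) against mean percentile of −log10 q (y axis) over the 10 libraries for the 11 member regions called in all of them, by role, with dotted lines at the medians of all such regions (66.0 and 72.0). The MCL1 and BCL2L1 regions sit far above the diagonal, with fold percentiles of 11.4 to 33.7 and q percentiles of 67.8 to 87.9.

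The DRACH motif, which the choice of regions did not use, was found on the sense strand within 50 nt of the strongest summit in 18 of 22 member regions (81.8%, 95% Wilson interval 61.5 to 92.7%) and on the antisense strand in 16 (72.7%). The 19 member regions without an exon on the other strand had 78.9% and 68.4%, and all 24077 exonic regions of genes on 1 strand had 88.3% and 73.1%. Within 25 nt the share of the 22 member regions was 54.5% and that of all regions 68.6%. For the motif GGAC within 50 nt the shares were 45.5% and 46.1%. The 4 member regions without a sense DRACH were the 5′UTR regions of PMAIP1 and BBC3, the exon 2 region of BBC3 and the exon 1 region of MCL1. The intervals cover counting error over regions only, and a motif match is not a measured m6A site.

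Among related genes, most with peaks had them in both lines. Of 12 other BCL2 relatives, 7 had an exonic summit in any library and 4 had one in all 10. Of 19061 genes of the whole series, 10237 had one in any library and 5514 in all 10. BCL2A1, a pro-survival relative induced by NF-kB, had a coding-sequence peak in 5 of 5 T24 and 0 of 5 T24R2 libraries, at percentiles of 10.3 to 90.7 (exact Fisher p = 0.00794, adjusted p = 0.203). It was 1 of the 2.28% of genes with p under 0.05 and more T24 libraries. BMF, a BH3-only gene, had peaks in every library and a further 3′UTR region in 0 T24 and 4 T24R2 libraries (exact Fisher p = 0.0476, adjusted p = 0.517), where 7.11% of all regions had p under 0.05 with more T24R2 libraries and 2.09% with more T24 libraries. BCL2L10, BIK, HRK, BCL2L14 and BNIP3L had no exonic summit.

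Of 14 genes of the apoptosome, the caspases and their inhibitors, 10 had an exonic summit (whole series 10237 of 19061 genes). In all 10 libraries 7 had one (whole series 5514). Of the 10 genes with a summit 1 had p under 0.05, and of their 21 regions 3 did, all with more T24R2 libraries. Of all genes 5.8% did, and of all regions 7.11%. CASP2, an initiator caspase, had an exonic summit in 1 T24 and 5 T24R2 libraries (exact Fisher p = 0.0476, adjusted p = 0.589). A coding region of CASP8, the caspase of death receptors, was called in 1 and 5 libraries, and a coding region of BIRC3, an inhibitor of apoptosis, in 0 and 4 (exact Fisher p = 0.0476 and adjusted p = 0.517 for each). Genes without an exonic summit included CYCS, which encodes cytochrome c, CASP6 and BIRC5. Of 6 genes that control the turnover of MCL1 and BIM proteins, 5 had an exonic summit and 4 had one in all 10 libraries. The whole-series counts are those given above. None of the 6 genes had p under 0.05. TRIM17 had no exonic summit.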

How the data were processed

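MeRIP-seq peak lists of 10 IP libraries (5 T24, 5 T24R2) were analysed; the 10 inputs entered only through peak calling by the authors. Per the study's methods and the submitters' processing notes, reads were aligned to hg38 (GRCh38) with STAR 2.7.0, unique reads without duplicates were selected with SAMtools 1.10, and MACS2 3.0.0a6 called peaks of each IP library over input. The deposited values of each peak are a score derived from the q-value, a fold enrichment (a ratio of IP over input), a −log10 p-value, a −log10 q-value and a summit. The fold and −log10 q columns were used, within each list only; every −log10 q was at least 2.00. The lists hold no counts, so the depth of the libraries is unknown, no count model could be run, and presence in a list depends on an unmeasured depth.

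Summits were matched to GENCODE 44 exons with bedtools 2.31.1 and pandas 2.3.3, without strand; 1793 peaks lay on sequences outside the reference. Position on the transcript refers to the MANE transcript. A library had a region when a peak overlapped it by at least 1 bp. Presence was tested by a two-sided exact Fisher test over all 43676 regions and over 10237 protein-coding genes, and the percentile of fold enrichment by a two-sided exact permutation test over 9577 regions called in all 10 libraries (scipy 1.17.1), each with Benjamini-Hochberg adjustment over the whole table and a threshold of 0.05. On simulated lists of the T24R2 against T24 comparison over 9577 regions, planted shifts of 10, 20 and 40 points gave an unadjusted p under 0.05 in 23%, 43% and 81.5% of regions. The shifts were added without a cap at percentile 100, so these rates do not carry over to regions near the top of their lists. Summits less than 100 nt apart were grouped as a cluster, a distance set after the data were seen. The 10 genes, the lists of related genes and the markers were chosen with earlier results of these data known. The genes named are all 10 members, those genes of 3 lists (other BCL2 relatives; apoptosome, caspases and inhibitors; MCL1 and BIM turnover) that had a gene or region with p under 0.05 or no exonic summit, the markers, and the 3 genes nearest to the member region of highest mean percentile. Not every gene of these lists is reported by name here. Alternatives were a cutoff of 5 or 10 on −log10 q, a fold cutoff of 4, lists trimmed to equal length by q, a cover of 50% of the region, any overlap of the peak with an exon, the percentile of −log10 q, the mean over peaks, omission of each library, and a fit that blocks on the replicate number.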

Additional observations from a re-analysis of the deposited data

Results flagged for a closer look

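In 3 of 28 sets of 5 libraries tested (each member region called in all 10 libraries, and the peak counts, in each line), 1 library stood apart from the other 4 by Dixon's gap test with a critical value of 0.71. By chance about 5% of such sets would. For the PMAIP1 3′UTR region the fold percentile of T24 replicate 1 was 35.5, and the next T24 value was 73.3. For the BCL2L1 stop-codon region that of T24R2 replicate 4 was 60.8, and the next was 25.7. For the MCL1 exon 1 region that of T24R2 replicate 1 was 56.9, and the next was 13.2.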

How the results depend on the processing

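The count of member genes with p under 0.05 stayed at 0 under every alternative run. That of member regions stayed at 0 except with lists trimmed to equal length, where it was 1 (the upstream BCL2L1 region). Of the 11 regions compared by fold percentile, 3 had p under 0.05, and 1 to 3 when each library was left out in turn (1, the PMAIP1 3′UTR region, without T24R2 replicate 2). With a replicate block 0 did, since the smallest p of the exact sign-flip test is 0.0625. For presence the block used an exact McNemar test, whose smallest p with 5 pairs is also 0.0625. Its counts of 0 for genes and regions were therefore fixed in advance. Replicate numbers did not pair the libraries: same-numbered libraries correlated at −0.030 to 0.111, and 1 of 5 libraries of each line was closest to its own number. Exonic member peaks per library differed by −1.4 (T24R2 minus T24), by −2.35 to −0.55 without each library, and by 1.4 with peaks under a −log10 q of 5 removed. The DRACH share of 81.8% was 54.5% within 25 nt and 45.5% for GGAC, both by their narrower search.

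Some of the differences with no call changed sign. Without each library in turn they ranged from −8.05 to 0.73 points for the BCL2 3′UTR, −0.59 to 0.21 for the BCL2 coding region, −7.68 to 3.08 for MCL1 exon 2, −16.7 to 4.13 for MCL1 exon 1, −14.4 to 1.45 for the PMAIP1 5′UTR and −7.53 to 9.45 for the BCL2L11 5′UTR. By −log10 q they were 1.11 for the BCL2 coding region, 1.78 for the BCL2 3′UTR, 12.4 for MCL1 exon 1 and 9.81 for MCL1 exon 2, and by the mean over peaks 8.71, 3.23 and 7.49 for the BCL2 coding, BCL2 3′UTR and BCL2L11 regions. The far 3′ BCL2 region was in 1 more T24R2 library at a cover of 50%, and the BBC3 5′UTR region in 1 fewer (−1) with lists of equal length. The cause was not tested. Ranking among the regions called in all 10 libraries moved the median difference of all regions from 4.84 to 0.07 points. Of all regions, 7.01% then had an unadjusted exact permutation p under 0.05 with higher values in T24R2 and 6.01% with higher values in T24. With lists of equal length the median difference was 0.16 points, over 7012 regions. Of the member fold percentile differences on these scales, only that of the MCL1 3′UTR under the ranking is given here. Unknown depth limits every statement on absent peaks.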

Other observations

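Some peaks lay close to member genes without a summit in an annotated exon. BID had no exonic summit, yet a region 161 nt past its annotated 3′ end (chr22:17733220-17733977) was called in all 10 libraries, at percentiles of 28.9 to 91.3. BCL2L13, another BCL2 relative, runs towards BID from the other side and ends at position 17730855, so the region lies between the ends of both genes, and without strand it cannot be assigned to either. For BCL2L11, a region over the annotated gene start (chr2:111118557-111119660) was called in all 10 libraries at percentiles of 47.6 to 90.9. Its summits lay at positions 111118700 to 111119367, before the annotated start at 111119378. The neighbouring gene ACOXL ends at position 111118548, so the region was not assigned to BCL2L11. In addition, 2 regions inside BCL2L11 were called in 1 T24 and 3 T24R2 libraries and in 0 and 1. A region 2577 nt past the end of BCL2L11 (chr2:111171021-111171168) was called in 0 T24 and 4 T24R2 libraries (exact Fisher p = 0.0476, adjusted p = 0.517). A region 3263 nt upstream of BBC3 was called in 0 and 2 libraries. The gene bodies of BCL2 and BCL2L1, including the long intron of each, held no region without an exonic summit.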
